A study of Rattus norvegicus with 54 samples.

Results

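The adipocyte and lipogenic genes Adipoq, Cfd, Scd, Thrsp, Pck1, Fabp4, Plin1, and Apoe were followed in the heart transcriptome of 54 rats. They were chosen by name, with their levels in these rats and their relation to the atrial gene Myl7 already known, so group differences and the relation to Myl7 are given as descriptions. Of the 8 genes, 7 had a row among the 10257 genes of the table; Plin1, which encodes the coat protein perilipin of fat droplets, had none. All rats were male wild-type Wistar rats that entered the protocol at about 7 to 8 weeks of age and were housed singly in 12 h of light and 12 h of dark. The 18 control (C) rats were left undisturbed with food and water ad libitum. The 18 shift work (W) rats spent 8 h of the light phase, Monday to Friday for 5 weeks, in a slowly turning drum with food at all times. The 18 WRF rats did the same work but had food only outside work hours. Hearts, atria and ventricles together, were taken on a day without work, from 3 rats per group at each of ZT1, 5, 9, 13, 17, and 21 (hours after lights on).

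White adipocytes store triglyceride and secrete adiponectin, encoded by Adipoq, and adipsin, encoded by Cfd. Lipogenesis turns surplus carbohydrate into fatty acids, and its enzymes rise with feeding and insulin in fat and liver. The rat heart carries fat on its outer surface, whereas the myocardium itself mainly burns fatty acids. Myl7 encodes the atrial isoform of the regulatory myosin light chain and is very low in ventricular muscle.

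The promoters of 3 of the genes whose levels varied together over the rats are shown as examples, each holding letters that were searched for. Each window runs from 250 bases before to 50 bases after the start site, written 5′ to 3′ on the gene's strand, and comes from RefSeq (GRCr8). It was matched by symbol, since the levels were made on another build, rn6. Capitals in Adipoq (chr11:91240120-91240419, minus strand) and Thrsp (chr1:161138915-161139214, minus strand) mark the letters CCAAT on either strand. Capitals in Pck1 (chr3:182348322-182348621, plus strand) mark TTACGTCA, the form of the cyclic AMP response element known in this promoter.
Adipoq: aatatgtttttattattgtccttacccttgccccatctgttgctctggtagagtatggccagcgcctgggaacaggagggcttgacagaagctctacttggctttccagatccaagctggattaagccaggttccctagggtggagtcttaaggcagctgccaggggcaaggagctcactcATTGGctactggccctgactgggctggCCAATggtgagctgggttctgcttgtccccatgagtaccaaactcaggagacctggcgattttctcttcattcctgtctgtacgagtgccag
Thrsp: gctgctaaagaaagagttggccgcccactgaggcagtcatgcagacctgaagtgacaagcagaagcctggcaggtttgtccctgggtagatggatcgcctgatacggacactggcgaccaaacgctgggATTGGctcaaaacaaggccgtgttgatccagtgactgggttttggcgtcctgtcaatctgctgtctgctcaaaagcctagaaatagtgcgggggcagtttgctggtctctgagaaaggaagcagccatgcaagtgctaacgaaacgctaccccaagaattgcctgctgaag
Pck1: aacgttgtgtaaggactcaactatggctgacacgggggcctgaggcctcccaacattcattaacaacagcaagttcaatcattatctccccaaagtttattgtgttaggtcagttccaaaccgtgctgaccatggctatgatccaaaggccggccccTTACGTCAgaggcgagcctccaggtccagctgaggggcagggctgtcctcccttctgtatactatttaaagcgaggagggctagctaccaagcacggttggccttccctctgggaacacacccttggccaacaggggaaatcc
CCAAT stood at 2 places in the Adipoq window and at 1 in the Thrsp window, and 37.5% of all 33469 windows held it. TTACGTCA was present in 0.807% of all windows. The windows of Cfd and Scd held neither, although Scd followed Adipoq more closely than Pck1 did. CCAAT also stood in the windows of Plin1 and Apoe, which are not shown. TATAAA was searched for too and stood in 14.2% of all windows but in no window of these genes. For Fabp4 there was no window. These matches describe letters and not bound sites.

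Depth is not given by fpkm, whose sums over all genes ran from 373115 to 749554 per rat, and 3 libraries stood apart from the other hearts. Summed over the lists of cell type markers, WRF51 held 1898 fpkm (fragments per kilobase of transcript, scaled to the mapped fragments of the library) of lung epithelial genes, and no C rat held over 13.8, and 18807 fpkm of macrophage genes against at most 411. Most of that macrophage sum was Lyz2, at 18178.5 fpkm. In no WRF rat did C1qa, Cd68, and Csf1r exceed 134.2, 121.2, and 53.8 fpkm. WRF62 held 729 fpkm of T cell genes, where the highest C rat held 34.4, and in W21 the liver genes summed to 1844 fpkm, where the highest C rat held 244. Ventricular genes summed to 312 fpkm in WRF51 and 630 in WRF62, below the 4048 of the lowest C rat, so in both libraries ventricular transcripts were scarce. Atrial genes summed to 204 fpkm in WRF51 but to 11904 in WRF62, where the C median was 349. Results are therefore also given without these 3 libraries. The rats fell into 3 runs of rat numbers per group, called series here, with 6 rats each, 1 per time. The C series were C17 to C22, C25 to C30, and C33 to C38, and the W series W17 to W22, W1 to W11, and W33 to W38. The WRF series were WRF1 to WRF6, WRF41 to WRF46 with WRF62, which was placed there because that run lacked a ZT5 rat, and WRF50 to WRF55. No C or W rat had a number as high as those of the last 2 WRF series, so for these the run and the group cannot be told apart. In RNA from whole hearts, fewer cells of a type and less RNA per cell cannot be told apart.

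Adipoq, Scd, Thrsp, and Pck1 were low in most hearts and high in a few WRF hearts, whereas Cfd, Fabp4, and Apoe were detected above 1 fpkm in every heart. Adipoq lay at a lowest, median, and highest level of 0, 0.197, and 27.2 fpkm in C rats, 0, 0.0993, and 11.7 in W rats, and 0, 1.97, and 180 in WRF rats. The groups overlapped over most of their range, but 4 WRF rats lay above every C and W rat. These were WRF52 (180 fpkm), WRF62 (171), WRF55 (103), and WRF53 (49.6). Adipoq was above 1 fpkm in 4 of the C, 6 of the W, and 11 of the WRF rats and was listed at 0 in 5 rats. Cfd, a serine protease of the alternative complement pathway, lay at 3.85, 6.66, and 39.7 fpkm in C rats, 3.04, 9.80, and 16.6 in W rats, and 7.34, 20.4, and 219 in WRF rats. The lower part of the WRF range lay within the C and W ranges.

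Scd, the desaturase that makes oleate from stearate, lay at 0.0434, 0.443, and 6.11 fpkm in C rats, 0.0247, 0.413, and 7.14 in W rats, and 0.118, 2.94, and 547 in WRF rats. In Scd 7 WRF rats, from 11.3 to 547 fpkm, lay above the highest C and W rats, and the other WRF rats lay among them. Its relative Scd2 is similar in sequence, and reads shared between these genes were not tested. Thrsp, a small acidic protein that promotes lipogenesis in response to thyroid hormone and carbohydrate, lay at 0, 0.587, and 31.7 fpkm in C rats, 0, 0.532, and 20.97 in W rats, and 0.944, 4.64, and 609 in WRF rats. All 18 WRF rats were above the C and W medians of Thrsp, although the ranges overlapped. Pck1, which in adipocytes feeds glycerol synthesis and in liver gluconeogenesis, lay at 0.0657, 0.348, and 12.5 fpkm in C rats, 0.115, 0.436, and 15.3 in W rats, and 0.267, 2.56, and 182 in WRF rats. Its lowest levels were close in the groups, and its 5 highest WRF levels (16.9, 45.5, 93.3, 146, and 182 fpkm) lay above every C and W rat.

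Fabp4, a fatty acid carrier abundant in adipocytes and also in capillary endothelium and macrophages, lay at 497, 1013, and 1771 fpkm in C rats, 369, 1064, and 1678 in W rats, and 71.3, 1272, and 2670 in WRF rats. On this per-length scale it was by far the highest member in the typical heart, and its lowest WRF level was that of WRF51. Apoe, the lipoprotein component made by macrophages, adipocytes, and liver, lay at 65.5, 154, and 573 fpkm in C rats, 101, 184, and 689 in W rats, and 160, 316, and 1038 in WRF rats. Its highest level was that of WRF51, the library with the lung transcripts and a macrophage sum made up mostly of Lyz2. The cells behind that level were not tested.

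**Figure D1:**
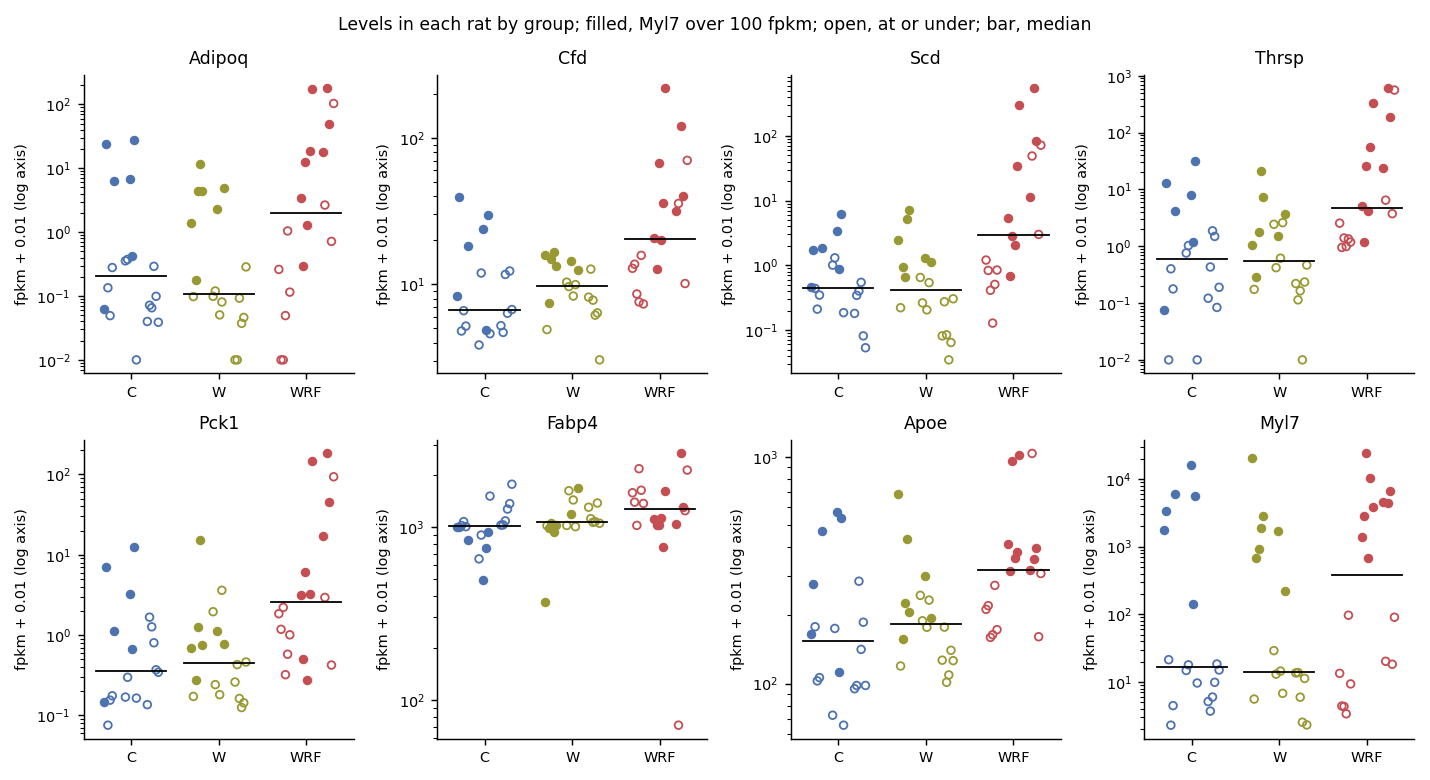
Level of each gene in each of the 54 rats (points, fpkm + 0.01, log axis) in C, W, and WRF rats, with the 3 series side by side within a group. Filled points are the 22 rats with Myl7 over 100 fpkm and bars are group medians. In Adipoq, Cfd, Scd, Thrsp, and Pck1 the highest WRF rats rise far above the C and W ranges. In Fabp4, WRF52 (2670 fpkm), WRF4 (2178), and WRF55 (2139) lie above every C and W rat, but by less on this log axis.

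Among the 3 groups, 5 of the 7 members (Cfd, Scd, Thrsp, Pck1, and Apoe) passed the Kruskal-Wallis test with Benjamini-Hochberg adjustment over all genes, where 9.17% of all genes passed and 7.96% passed with a higher median and a Mann-Whitney p under 0.05 against both C and W rats. The adjusted p-values were 0.0193 for Cfd, 0.0289 for Scd, 0.0205 for Thrsp, 0.0430 for Pck1, and 0.0470 for Apoe. Adipoq had 0.200 and Fabp4 0.122. Without WRF51, WRF62, and W21 only Cfd and Thrsp passed, where 5.16% of all genes did. Without the second or the third WRF series no member and 0.0% of all genes passed this test, with 5 and 4 members and 14.5% and 15.3% of all genes at an unadjusted p under 0.05. The choice of members used this contrast, so nothing is read from the count. A further limit comes from the table, which keeps genes over 1 fpkm in at least 18 rats. Adipoq, Scd, Thrsp, and Pck1 exceeded 1 fpkm in only 10, 10, 16, and 11 of the C and W rats together, and thus passed this filter through WRF rats; Cfd, Fabp4, and Apoe exceeded it in all 36.

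Sizes were taken from limma on log2(fpkm + 1), which understates the change of low genes. Between WRF and C rats, 5 members passed at an adjusted p of at most 0.05, all higher in WRF, and 11.3% of all genes were higher in that comparison (12.9% in either direction). Thrsp was higher by 2.57 ± 0.66 (SE; adjusted p = 0.00904), Scd by 2.37 ± 0.57 (0.00696), and Pck1 by 1.73 ± 0.53 (0.0261), with 18 rats in each group. Cfd was higher by 1.40 ± 0.33 (0.00559) and Apoe by 0.9999 ± 0.28 (0.0145). Adipoq differed by 1.64 ± 0.63 (0.0684) and Fabp4 by 0.20 ± 0.24 (0.573), and neither passed. The Fabp4 estimate includes WRF51 with 71.3 fpkm. By ranks, its unadjusted Mann-Whitney p for WRF against C was 0.0109. The median difference over all genes was 0.08, and that over the 7 members was 1.64. Without WRF51, WRF62, and W21 the same 5 members passed, with differences of 2.34 for Thrsp, 1.90 for Scd, 1.48 for Pck1, 1.17 for Cfd, and 0.80 for Apoe; 9.28% of all genes were then higher.

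Between W and C rats no member passed, and 0.0% of all genes did so by limma, with 94 genes at an unadjusted p under 0.05 and no member among them. The differences of the 7 members ran from -0.15 to 0.22, and every Mann-Whitney p for W against C was above 0.05. Between WRF and W rats, 6 members were higher, where 12.4% of all genes were (14.3% in either direction): Thrsp by 2.65 ± 0.66, Scd by 2.38 ± 0.57, Adipoq by 1.79 ± 0.63, Pck1 by 1.79 ± 0.53, Cfd by 1.34 ± 0.33, and Apoe by 0.78 ± 0.28. The adjusted p-values ran from 0.0120 to 0.0470 among these 6, and Fabp4 had 0.835. Adipoq and Apoe were no longer called without WRF51, WRF62, and W21 (limma, adjusted p = 0.0697 and 0.101), with Myl7 as a covariate (0.0833 and 0.0810), or with median-of-ratios scaling (0.0594 and 0.0549). In these fits Cfd, Scd, Thrsp, and Pck1 were still called, where 4.57%, 7.46%, and 4.89% of all genes were higher. Over all alternatives the call was lost in 17 of 23 for Adipoq and 18 of 25 for Apoe. WRF rats enter both this comparison and that with C rats.

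The rats with high levels were unevenly spread over the series. Adipoq exceeded 1 fpkm in 2, 2, and 0 rats of the C series in the order given above, in 4, 2, and 0 rats of the W series, and in 1, 5, and 5 rats of the WRF series, with 6 rats in each. Median Adipoq in the WRF series was 0.0722, 7.93, and 33.8 fpkm. Median Scd in the same series was 0.661, 4.18, and 60.4 fpkm, against 0.443, 1.15, and 0.252 in C and 1.70, 0.586, and 0.0729 in W. The first WRF series thus lay within the range of the C and W series for both genes. Median Thrsp was 1.26, 15.7, and 105 fpkm in the WRF series, against 0.279, 1.10, and 0.301 in C and 1.42, 1.98, and 0.183 in W.

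The comparison of WRF with C rats changed with the series, for the members as for all genes. Without the third WRF series (WRF50 to WRF55) no member passed and 3.93% of all genes were higher, against 11.3% with all rats. At an unadjusted p under 0.05 stood 5 members and 21.8% of all genes. Thrsp differed by 1.48 ± 0.59 (limma, adjusted p = 0.131), Scd by 1.22 ± 0.49 (0.136), Cfd by 1.08 ± 0.34 (0.0602), and Apoe by 0.93 ± 0.31 (0.0693). Without the second WRF series Cfd, Scd, and Thrsp passed, where 3.36% of all genes were higher. Without the first WRF series, whose Adipoq levels were the lowest of the 3, 6 members passed, where 30.7% of all genes were higher, with Scd higher by 3.62 ± 0.55 and Adipoq by 2.83 ± 0.64. The direction of these members was the same in all 3 cases.

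Myl7 itself varied by orders of magnitude, from 2.29 to 23938 fpkm, and exceeded 100 fpkm in 22 rats. WRF55 (90.6 fpkm) and WRF5 (97.0) lay just under this level and C28 (143) and W9 (225) just over it. By series, Myl7 exceeded 100 fpkm in 3, 3, and 0 C rats, 5, 2, and 0 W rats, and 0, 6, and 3 WRF rats. Of the 22 rats over this level, 18 had Adipoq above 1 fpkm. Of the 32 rats at or under it, 3 did, and these were WRF51, WRF55, and WRF5. Among C and W rats with Myl7 at or under 100 fpkm, 0 of 12 and 0 of 11 had Adipoq above 1 fpkm.

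Since Myl7 ranged so widely, correlations with it were computed separately in the rats over and at or under 100 fpkm; they describe these libraries, and the points share their scaling to the library total. Over the 22 rats with Myl7 over 100 fpkm, Spearman's rho on fpkm was 0.73 for Apoe, 0.65 for Cfd, 0.56 for Adipoq, 0.55 for Scd, 0.52 for Thrsp, 0.50 for Pck1, and -0.30 for Fabp4, with a median of 0.25 over all genes and 0.73 at their 95th percentile. Pearson's r on log2(fpkm + 1) was 0.43 for Adipoq in these rats and 0.37 without the 2 rats farthest from the median of Myl7. Over the 32 rats at or under 100 fpkm, rho was 0.50 for Apoe, 0.49 for Cfd and Adipoq, 0.38 for Scd, 0.26 for Thrsp, 0.20 for Pck1, and 0.11 for Fabp4, with a median of 0.14 over all genes and 0.46 at the 95th percentile. For Adipoq r fell from 0.57 to 0.33 without the 2 farthest rats, and for Pck1 from 0.42 to 0.06. Without WRF51, WRF62, and W21 rho was 0.79 for Apoe, 0.67 for Cfd, 0.57 for Adipoq, and -0.35 for Fabp4 over 100 fpkm, and 0.46 for Cfd, 0.45 for Apoe and Adipoq, 0.19 for Fabp4, and 0.14 for Pck1 at or under it. Differences between genes in rho were not tested.

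Within a group and a Myl7 level the relation was uneven. Over 100 fpkm, rho between Adipoq and Myl7 was 0.49 in 6 C rats, -0.04 in 7 W rats, and 0.43 in 9 WRF rats, and at or under 100 fpkm it was 0.34 in 12 C rats, -0.26 in 11 W rats, and 0.90 in 9 WRF rats. Pck1 also had values under 0, at -0.04 in the W rats over 100 fpkm and -0.08 in the C rats at or under it, as did Thrsp at -0.21 in the latter. For Cfd, Scd, and Apoe every value was positive, from 0.17 to 0.94. The median over all genes in C, W, and WRF rats was 0.60, 0.21, and 0.00 over 100 fpkm. At or under 100 fpkm it was 0.07, 0.255, and 0.15. In the C rats over 100 fpkm, Adipoq and Cfd, both at 0.49, thus lay below the median gene. So did Scd, at 0.245, in the W rats at or under it. Positive values were therefore not particular to the members. The sets are small, and no difference between them was tested.

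**Figure D2:**
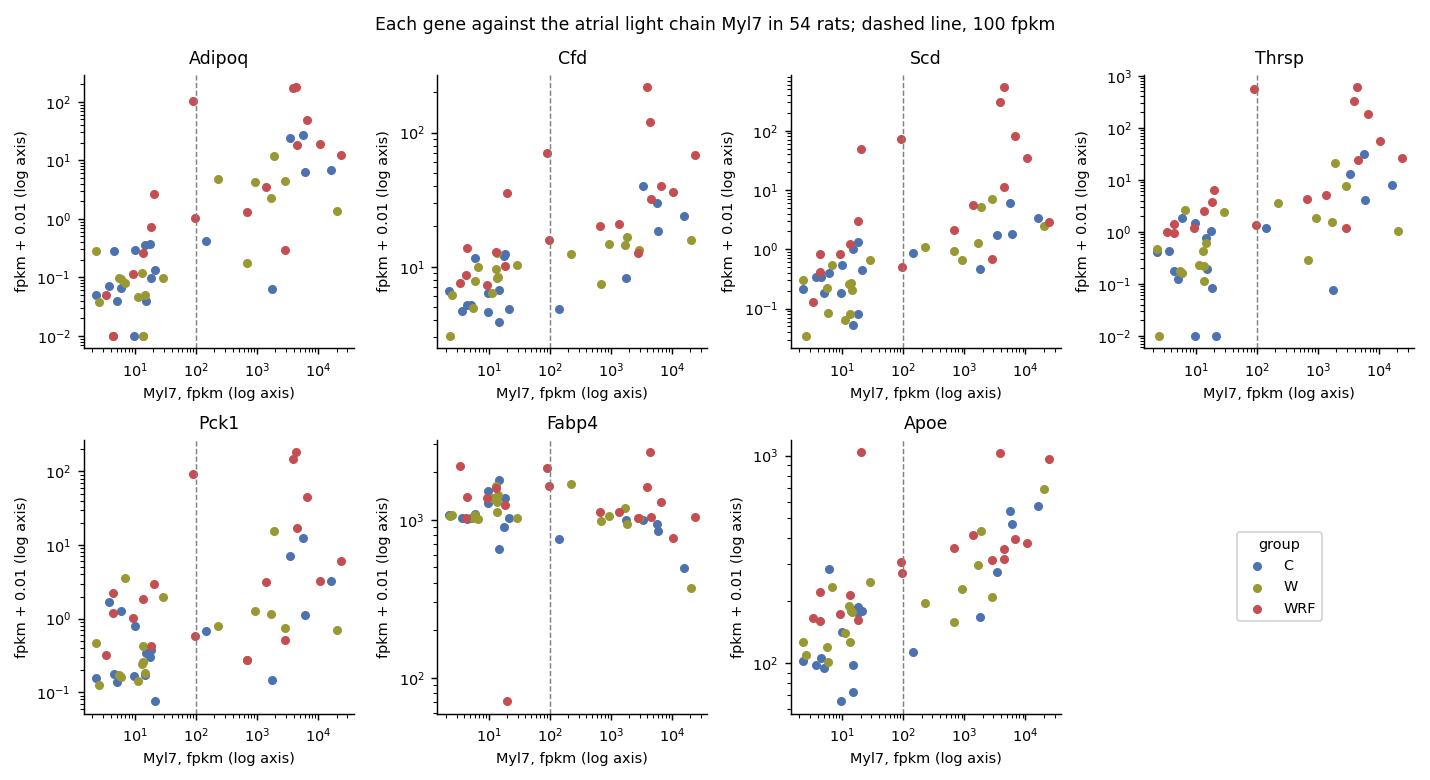
Each gene (fpkm + 0.01, log axis) against Myl7 (fpkm, log axis) in the 54 rats, with C in blue, W in olive, and WRF in red, and a dashed line at 100 fpkm of Myl7. Of the 22 rats to the right of the line 18 had Adipoq above 1 fpkm; WRF55 lies just to its left with 103 fpkm of Adipoq and 563 of Thrsp.

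Rats can be compared on either side of 100 fpkm of Myl7, but the groups differed in Myl7 within each side. At or under this level, Myl7 reached 97.0 fpkm among WRF rats, whereas the highest C rat held 21.3 and the highest W rat 29.1. Over it, the W rats had the lowest median Myl7, 1686 fpkm, against 4553 for C and 4411 for WRF. The groups were thus not matched for Myl7. Among rats at or under 100 fpkm, median Thrsp was 0.285 fpkm in 12 C rats, 0.225 in 11 W rats, and 1.39 in 9 WRF rats, and median Scd was 0.335, 0.212, and 0.836. Median Pck1 was 0.227, 0.232, and 1.17 fpkm, median Adipoq 0.0753, 0.0706, and 0.251, median Cfd 5.78, 8.18, and 12.9, and median Apoe 105, 140, and 213. Each median was highest in WRF rats, but the lowest WRF rat of each gene lay within the C range. Among rats over 100 fpkm, median Thrsp was 6.03 fpkm in 6 C rats, 1.80 in 7 W rats, and 26.4 in 9 WRF rats, and median Scd was 1.78, 1.27, and 11.3. Median Adipoq was 6.52, 4.32, and 17.96 fpkm, median Pck1 2.19, 0.773, and 6.14, and median Apoe 373, 227, and 380. Where Myl7 was high, the Apoe medians of WRF and C rats were close.

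By limma within these levels, no member passed for WRF against C in either set; at an unadjusted p under 0.05 stood 6 members at or under 100 fpkm and 4 over it, where 18.6% and 31.8% of all genes did. Among the rats at or under 100 fpkm 0.263% of all genes were higher, and Thrsp differed by 1.88 ± 0.61 (adjusted p = 0.108), Scd by 1.53 ± 0.51 (0.117), Cfd by 1.09 ± 0.29 (0.0675), and Apoe by 0.99 ± 0.27 (0.0689). Among the rats over 100 fpkm 5.72% of all genes were higher, and Scd differed by 2.84 ± 0.996 (0.0543), Thrsp by 2.57 ± 1.07 (0.1004), Cfd by 1.28 ± 0.50 (0.0786), and Adipoq by 1.43 ± 0.99 (0.335). Without WRF51 no member passed at or under 100 fpkm either, where 0.838% of all genes were higher. These fits held fewer rats, and their estimates kept the direction of the whole set for every member but Fabp4 (-0.03 ± 0.35 at or under 100 fpkm). That set includes WRF51, and without WRF51 the sign of Fabp4 was not reversed.

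With Myl7 as a covariate over all 54 rats, Cfd, Scd, Thrsp, and Apoe remained higher in WRF than in C rats, where 7.55% of all genes were. The differences were 1.99 ± 0.54 for Thrsp (limma, adjusted p = 0.0161), 1.92 ± 0.50 for Scd (0.0120), 1.07 ± 0.24 for Cfd (0.00552), and 0.71 ± 0.20 for Apoe (0.0178). Pck1 came to 1.36 ± 0.48 (0.0590) and Adipoq to 0.99 ± 0.46 (0.144). Without the covariate Adipoq had stood at 1.64.

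Adipoq served as a measure of adipocyte transcripts for the other members. Over the 18 WRF rats, Spearman's rho with Adipoq was 0.95 for Thrsp, 0.92 for Cfd, 0.90 for Scd, 0.79 for Pck1, 0.71 for Apoe, and 0.12 for Fabp4, with a median of 0.18 over all genes. In C rats it was 0.90 for Scd, 0.77 for Thrsp, 0.64 for Pck1, 0.50 for Cfd, 0.66 for Apoe, and -0.77 for Fabp4, with a median of 0.31, and in W rats 0.85 for Scd and 0.77 for Thrsp. Scd and Thrsp thus followed Adipoq closely in every group, and Fabp4 in none.

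In the 21 rats with Adipoq above 1 fpkm, the level of each member per unit of Adipoq could be set side by side. Thrsp per Adipoq had a lowest, median, and highest ratio of 0.549, 0.914, and 1.17 in 4 C rats, 0.417, 0.756, and 1.80 in 6 W rats, and 1.30, 2.45, and 5.45 in 11 WRF rats. All 11 WRF rats lay above the 4 C rats, and they overlapped with the W rats. Scd per Adipoq had a median of 0.257 in the C rats, 0.506 in the W rats, and 1.61 in the WRF rats, with a WRF range of 0.232 to 18.5 whose top was WRF51. Pck1 per Adipoq had medians of 0.379, 0.394, and 0.903. Cfd per Adipoq had medians of 2.29, 3.23, and 1.91, without the order of the lipogenic genes. These ratios are descriptions, with no test.

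**Figure D3:**
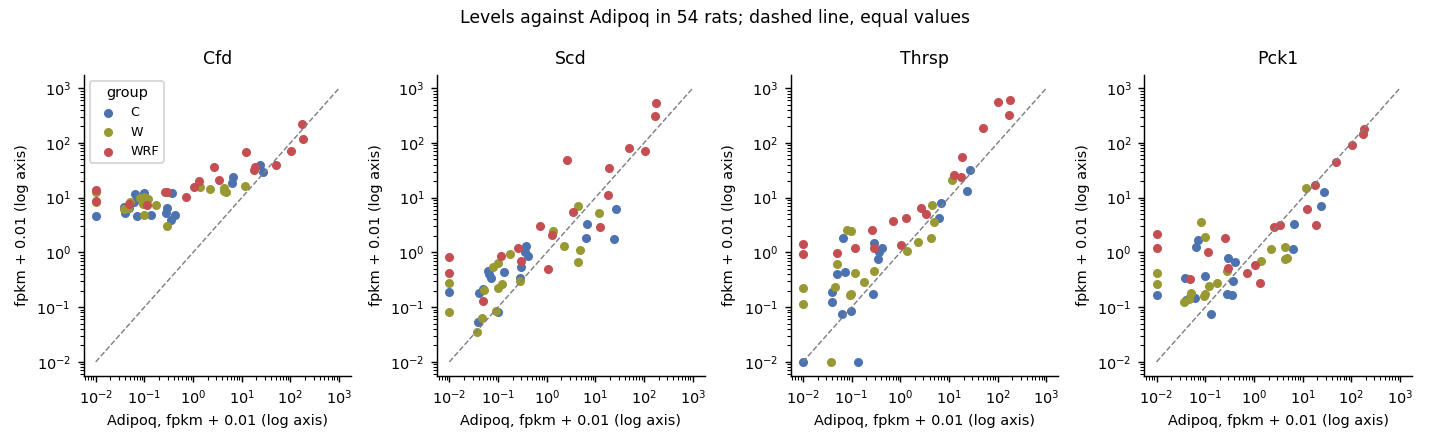
Cfd, Scd, Thrsp, and Pck1 (fpkm + 0.01, log axis) against Adipoq (fpkm + 0.01, log axis) in the 54 rats, with C in blue, W in olive, and WRF in red; the dashed line marks equal values. Above 1 fpkm of Adipoq all 4 genes climb with it, and the 11 WRF rats lie above the 4 C rats in Thrsp per unit of Adipoq (1.30 at the lowest against 1.17), while in Cfd the groups overlap.

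With Adipoq as a covariate in limma, a fit added after the data had been seen, Thrsp was higher in WRF than in C rats by 0.92 ± 0.20 (adjusted p = 0.00769), Scd by 1.06 ± 0.31 (0.0324), and Cfd by 0.65 ± 0.17 (0.0174), where 4.12% of all genes were higher. Without WRF51, WRF62, and W21 the same 3 genes passed in this fit, where 7.09% of all genes were higher. Pck1 (0.49 ± 0.25, adjusted p = 0.233) and Apoe (0.57 ± 0.24, 0.136) did not pass. Against W rats, Thrsp alone of the 6 genes passed, at 0.85 ± 0.20 (0.0367), where 1.07% of all genes were higher. Without the covariate the differences from C rats had been 2.57 for Thrsp, 2.37 for Scd, and 1.40 for Cfd. The covariate entered as 1 common slope for the 3 groups. Adipoq exceeded 1 fpkm in only 21 rats, and log2(fpkm + 1) understates differences among low levels. Among the remaining rats the fit could therefore hardly adjust for adipocyte transcripts. The members were also chosen with these levels known, and Adipoq, Scd, and Thrsp passed the expression filter through WRF rats. The p-values are thus not read as a WRF excess beyond Adipoq.

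**Figure D4:**
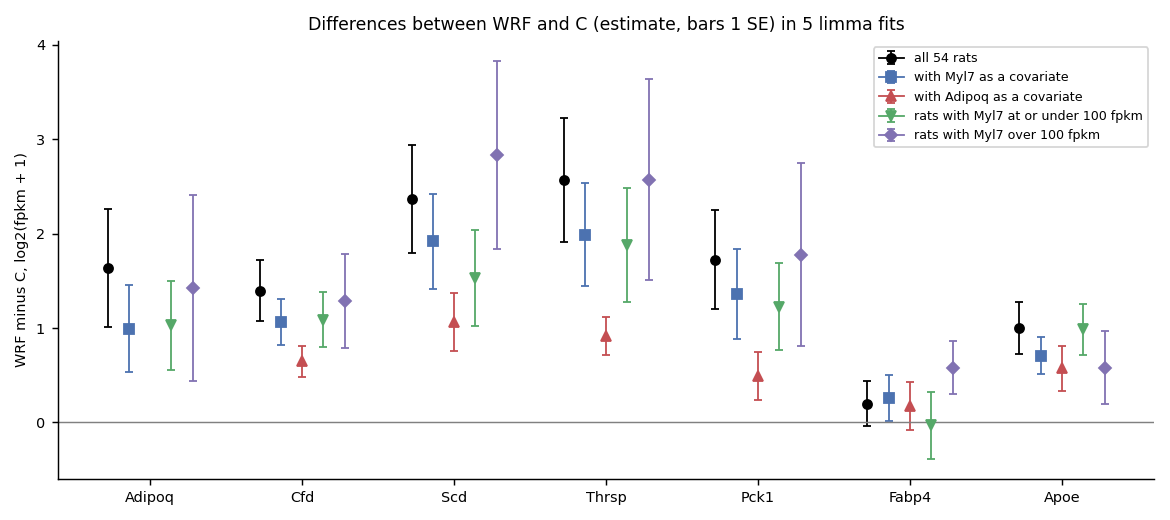
Difference between WRF and C rats on the log2(fpkm + 1) scale (points, with bars of 1 SE) for each gene in 5 limma fits: all 54 rats, with Myl7 or Adipoq as a covariate, and among rats at or under or over 100 fpkm of Myl7. For Cfd, Scd, Thrsp, and Pck1 the estimate with Adipoq as a covariate (0.65, 1.06, 0.92, and 0.49) is the lowest of the 5.

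The rats with the highest levels differed in the rest of their transcripts. WRF52 held 180 fpkm of Adipoq, 547 of Scd, 609 of Thrsp, 182 of Pck1, 120 of Cfd, and 4411 of Myl7, with ventricular genes summing to 10578 fpkm. WRF55 held 103 fpkm of Adipoq, 71.8 of Scd, 563 of Thrsp, and 93.3 of Pck1, with only 90.6 of Myl7 and 16338 fpkm of ventricular genes. WRF62, with its T cell transcripts, held 171 fpkm of Adipoq, 305 of Scd, and 219 of Cfd, the highest Cfd of all rats. WRF51, with its lung transcripts, held 48.9 fpkm of Scd and 35.7 of Cfd with only 2.64 of Adipoq and 6.48 of Thrsp. Its Scd thus did not go with Adipoq and Thrsp. Without WRF55, the same 5 members were called for WRF against C by limma, where 11.1% of all genes were called in either direction. By the Kruskal-Wallis test 3 of them (Cfd, Scd, and Thrsp) were called, where 6.62% of all genes were.

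The genes most like Adipoq over the 51 rats left without WRF51, WRF62, and W21 were, by Spearman's rho, Retn (0.88), Fasn (0.83), Nov (0.81), Fmod (0.81), Nnat (0.81), LOC291863 (0.80), Wnt2b (0.80), Scd2 (0.79), Car3 (0.79), and Myl7 (0.78). Retn encodes the adipocyte hormone resistin and Fasn fatty acid synthase. Retn had group medians of 0, 0.0568, and 1.51 fpkm, in the same order as above, and reached 78.4 fpkm. Fasn had medians of 1.54, 1.42, and 2.92 fpkm and reached 166.

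Further adipocyte and lipogenic genes were read from lists chosen by name. Of 19 other adipocyte genes with a row, 4 were higher in WRF than in C rats by limma (Cebpa, Retn, Dgat2, and Fabp5) and none was lower, beside 11.3% of all genes, with a median difference of 0.27. Cebpa, a transcription factor of adipocyte differentiation that liver and myeloid cells also use, was higher by 1.10 ± 0.31 (adjusted p = 0.0156), and Retn by 1.58 ± 0.50 (0.0305). Retn exceeded 1 fpkm in only 9 of the C and W rats together, Cebpa in 7 C and 10 W rats, and Aacs in 5 and 2. These list genes thus also passed the expression filter through WRF rats, and their p-values carry that limit. Pparg, the master regulator of adipocytes, differed by 0.34 ± 0.17 (0.175). Of 29 other lipogenic genes, 9 were higher (Fasn, Acly, Srebf1, Dgat2, Slc25a1, Nr1h3, Pgd, Tkt, and Aacs) and 1 lower (Acacb, the mitochondrial acetyl-CoA carboxylase of muscle), with a median of 0.32. Fasn was higher by 1.58 ± 0.43 (0.0140) and Acly, which makes cytosolic acetyl-CoA, by 0.74 ± 0.23 (0.0274). Without WRF51, WRF62, and W21 these counts fell to 1 adipocyte gene (Cebpa) and 3 lipogenic genes (Fasn, Slc25a1, and Pgd), with none lower, beside 9.28% of all genes. Without the third WRF series no gene of either list passed (3.93% of all genes), and without the first 10 adipocyte and 16 lipogenic genes were higher (30.7%) and 3 of each list were lower. With Adipoq as a covariate no gene of either list passed, where 4.12% of all genes were higher and 50 of 10257 lower. Nothing is read from these small counts. Dgat2 stands in both lists.

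Markers of other cells were read in the same comparison. None of 4 brown adipocyte genes, 11 atrial genes, 6 ventricular genes, or 6 epicardial and mesothelial genes passed for WRF against C, with median differences of -0.04, 0.55, -0.33, and 0.87. Of 10 macrophage genes 2 were higher (C1qa and C1qb), of 7 T cell genes 1 (Cd3d), and of 10 endothelial genes 1 was lower (Cdh5). No liver gene of 10 and no lung gene of 2 passed. Over all genes 11.3% were higher and 172 of 10257 were lower, and nothing is read from these small counts. All 10 macrophage genes, all 7 T cell genes, and all 10 liver genes had positive differences, with medians of 0.53, 0.66, and 0.62; over all genes 6574 of 10257 were positive. Without the 3 libraries apart no macrophage or T cell gene passed, and Cdh5 and Kdr were lower, beside 9.28% of all genes higher and 161 lower. The medians were then 0.29 for macrophage, 0.23 for T cell, 0.63 for liver, and 0.21 for ventricular genes. Summed atrial genes ran from 239 to 57781 fpkm in C, 224 to 64072 in W, and 204 to 55929 in WRF rats, and summed macrophage genes had medians of 172, 190, and 256 fpkm. Their part in the differences of the members beyond the fit with Myl7 was not tested.

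No 24-h rhythm of these genes passed the test. By harmonic regression with a 24-h period on fpkm, none of the 7 members was rhythmic in C, W, or WRF rats at an adjusted p under 0.05, where 0.848%, 0.0%, and 0.039% of all genes were. None passed at an unadjusted p under 0.05 either, where 5.91%, 3.05%, and 6.35% of all genes did, and the lowest unadjusted p-values (F test of the regression) were 0.185, 0.139, and 0.632. No member passed the limma test of a difference in rhythm from C rats, with the lowest adjusted p at 0.827. Adipoq in WRF rats had medians of 18.8, 17.96, 2.64, 0.282, 12.4, and 0.706 fpkm from ZT1 to ZT21, with 3 rats at each time. The 3 rats of a time came from 3 series, and at ZT13 they ran from 0.0393 to 180 fpkm, so that the spread within a time was as wide as that between times.

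**Figure D5:**
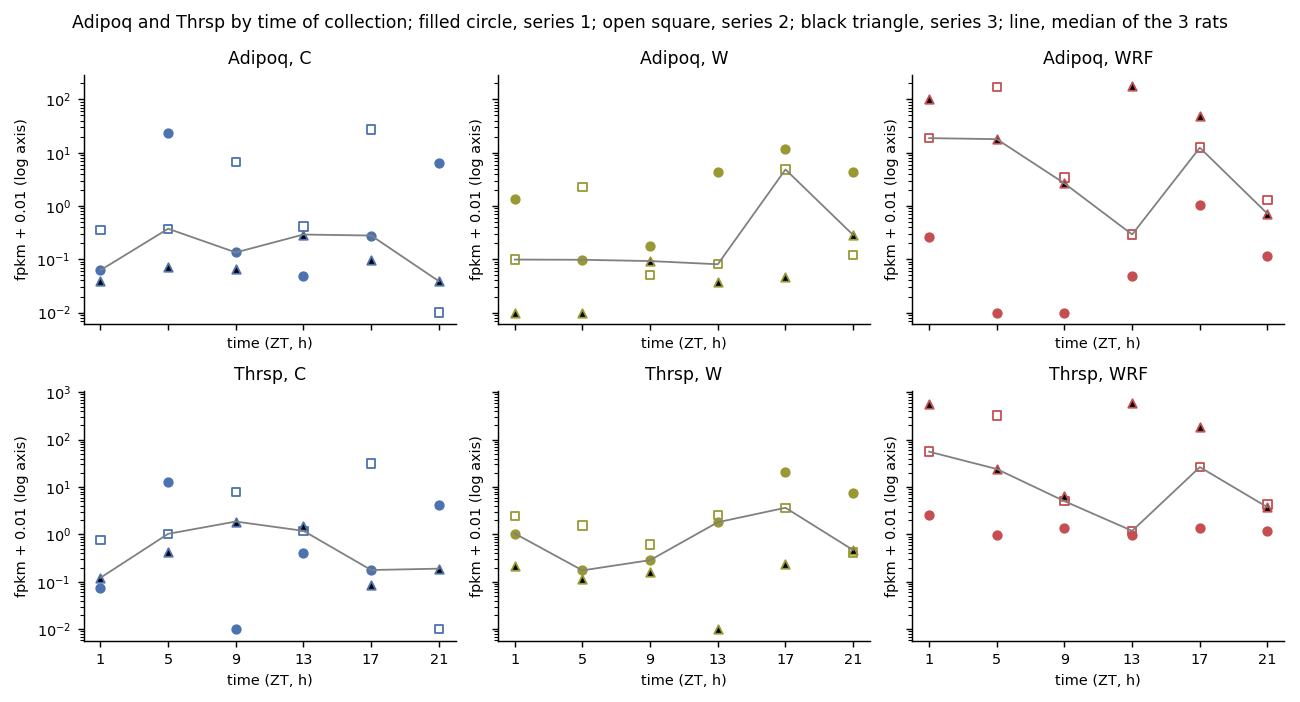
Adipoq (top) and Thrsp (bottom) in each rat (fpkm + 0.01, log axis) by time of collection (ZT, h) in C, W, and WRF rats, with a marker for each series and a line through the median of the 3 rats. In WRF rats the first series lies below the other 2 at every time in Adipoq, with at most 1.03 fpkm.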

How the data were processed

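The deposited table holds fpkm values (fragments per kilobase of transcript, scaled to the mapped fragments of each library) for 10257 genes and 54 hearts. Per the labels and the methods, the authors mapped strand-specific poly(A) libraries to rn6 with TopHat2, estimated fpkm with Cufflinks, and kept genes above 1 fpkm in at least 18 rats; versions are not given in the sources used here. Reads could not be recovered from fpkm, so no counting interval is given.

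Groups and times were taken from the titles; in 12 WRF rats other labels gave another time, which was run as an alternative. The members, the lists of genes, and the Myl7 level of 100 fpkm were chosen with earlier results of these data known. Named genes were the members, Myl7, the 10 genes most correlated with Adipoq, and list genes by smallest p or likeness to the members. The study's Kruskal-Wallis test with Benjamini-Hochberg adjustment over all genes and Mann-Whitney tests (scipy 1.17.1) were run on fpkm. Sizes came from limma 3.58.1 in R 4.3.3 with a variance trend on log2(fpkm + 1), with all 54 rats in the fit and a threshold of 0.05. Rhythms were tested by harmonic regression with a period of 24 h. Scripts were tested on simulated data. Alternatives were other pseudocounts (0.1 and 5), a mean of at least 5 fpkm, median-of-ratios scaling, time as a factor, weights per rat, Myl7 as a covariate, leaving out libraries or series, and a block for shared rat numbers; fits with Adipoq as a covariate, within Myl7 levels, and without WRF55 were added after the data had been seen. Each rat is a separate animal.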

Additional observations from a re-analysis of the deposited data

How the results depend on the processing

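The count of 5 members called by the Kruskal-Wallis test fell to 3 with median-of-ratios scaling and without WRF55, to 2 without WRF51, WRF62, and W21, without C17 to C22, and without W33 to W38, and to 0 without the second or the third WRF series. The limma count of 5 for WRF against C fell to 3 without the second WRF series and with Adipoq as a covariate (with or without the 3 libraries apart), and to 0 without the third WRF series and within either Myl7 level (also without those libraries). The limma count of 6 for WRF against W fell to 3 without the second W series, to 2 among rats with Myl7 over 100 fpkm (also without WRF62 and W21), to 1 with Adipoq as a covariate (also without the 3 libraries), and to 0 without the first or the third W series, the second or the third WRF series, and among rats with Myl7 at or under 100 fpkm (also without WRF51). Calls fell over the whole table too. By limma 1154 genes were higher in WRF than in C rats, and 345 and 403 without the second and the third WRF series. With Adipoq as a covariate 423 were higher, and 27 and 587 at or under and over 100 fpkm of Myl7. By the Kruskal-Wallis test 9.17% of all genes passed, and 5.16% without WRF51, WRF62, and W21. Without WRF55 6.62% passed, and 0.0% without the second or the third WRF series. Shares are not given here for every setting, and no drop is read as particular to the members. The fits within Myl7 levels and without a series hold fewer rats, and why the calls changed was not tested. Without the first WRF series, also with fewer rats, 3146 genes were higher in WRF than in C rats. Fabp4 changed sign, at -0.0302 for WRF against C among rats with Myl7 at or under 100 fpkm, and for WRF against W at -0.0165 with median-of-ratios scaling, -0.0914 without the first W series, -0.10 without the first WRF series, and -0.11 among rats with Myl7 at or under 100 fpkm. No other member changed sign in any alternative. Adipoq passed for WRF against C in 2 of 23 alternatives, without the first WRF series and with weights per rat. Fabp4 passed in 2 of 25, with weights per rat and with Myl7 as a covariate without WRF51, WRF62, and W21. No member was called for W against C or as rhythmic under any alternative. Median-of-ratios scaling shifted the median difference of all genes between WRF and C from 0.08 to 0.00 and the calls from 1154 higher and 172 lower to 601 and 516.

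Over the 24 C and W rats that share 12 rat numbers, 0 members were called for W against C with the replicate block and 0 without it, and 0 genes were called in either fit (1707 and 887 genes at an unadjusted p under 0.05). Sharing a number was not read as a pairing of rats: deviations of same-numbered rats correlated from -0.18 to 0.65, above 0.1 in 6 of 12 pairs, and 1 of the 12 rats correlated best with its own number.

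With 18 rats per group and fpkm without read counts, values under about 1 fpkm carry an error that the table does not give, and the order of rats at such levels is uncertain.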
